A study of Homo sapiens with 39 samples.

Results

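The genes described here are 8 targets of NRF2, a transcription factor that switches on antioxidant defence, and NFE2L2, the gene that encodes NRF2 itself. The 8 targets are NQO1 (AMPL4572860), HMOX1 (AMPL9239404), GCLM (AMPL10709564), GCLC (AMPL9689011), TXNRD1 (AMPL3786819), SRXN1 (AMPL17965035), SLC7A11 (AMPL24243752) and OSGIN1 (AMPL21876165), and the target of NFE2L2 is AMPL28576834. They were chosen by name, as the rows of the deposited table that carry these 9 symbols, and make up 9 of the 20802 gene targets. All 9 passed the filter on low counts. The identifiers name the single short amplicon by which Ion AmpliSeq, a targeted form of RNA-Seq, counted each gene. Because amplicons differ in efficiency, levels are compared between libraries and not between genes.

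HepaRG™ cells, an established human hepatoma line that had been differentiated into a mixture of hepatocyte-like and cholangiocyte-like cells, were given a chemical or its vehicle daily for 3 days. RNA was taken 7 h after the third treatment, at 55 h of exposure. The RNA of 3 cultures was pooled into 1 library, so each of the 39 libraries stands for 1 condition, and the spread between cultures was not measured. The study paired a micronucleus test with a gene signature. It asked whether the signature separates chemicals that damage DNA (DDI) from those that do not (non-DDI).

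The 5 DDI chemicals were aflatoxin B1 (AFB1; 0.25, 1 and 2.5 µM), 2-nitrofluorene (2NF; 10, 50 and 250 µM), cisplatin (CISP; 2, 5 and 10 µM), etoposide (ETP; 0.5, 2.5 and 10 µM) and methyl methanesulfonate (MMS; 50, 100 and 200 µM), a direct alkylating agent. The 5 non-DDI chemicals were colchicine (COL; 0.05, 0.1 and 0.3 µM), 2-deoxy-D-glucose (2DG; 1.25, 5 and 10 mM), ampicillin (AMP; 1, 3 and 10 mM), sodium ascorbate (ASC; 1, 2 and 10 mM) and sodium chloride (NaCl; 1, 2.5 and 10 mM). Each treated library was set against the vehicle control of its own experiment. MMS had the only water control. The AFB1 and COL experiments shared 1 DMSO control, 2NF, CISP and ETP each had their own DMSO control, and 2DG, AMP, ASC and NaCl each had a media control. The 3 concentrations of a chemical share their control, so their ratios are not independent.

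In unstressed cells the adaptor KEAP1 holds NRF2 and passes it to a ubiquitin ligase, so that it is quickly degraded. Electrophiles and oxidants modify KEAP1, NRF2 escapes, pairs with small MAF proteins and binds antioxidant response elements near its target genes. In liver cells these targets rebuild glutathione, reduce oxidized proteins and quinones, and break down heme. The abundance of NRF2 is set mainly through the stability of the protein, so the NFE2L2 transcript is only a partial readout of the pathway.

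The antioxidant response element was searched as the letters TGACNNNGC on both strands in RefSeq promoter windows (build GRCh38.p14, 250 bases before to 50 after a gene start). Of the 9 genes, 7 had a window and 2, HMOX1 and SLC7A11, did not. The letters stood in 3 of the 9 windows of these genes, compared with 13.3% of all 35116 windows. They are shown because they are the letters the pathway is known to read, with the match in capitals, in the direction of the gene.
GCLM, chr1:93909446-93909474, minus strand, 34 bases before the start: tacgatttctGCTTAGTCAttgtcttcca
TXNRD1, chr12:104215670-104215698, plus strand, 99 bases before the start: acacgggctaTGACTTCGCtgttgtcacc
TXNRD1, chr12:104215761-104215789, plus strand, 8 bases before the start: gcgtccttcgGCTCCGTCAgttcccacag
TXNRD1, chr12:104286920-104286948, plus strand, 102 bases before a second start: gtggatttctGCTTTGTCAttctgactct
The match in GCLM reads TGACTAAGC on the opposite strand. The windows of NQO1, GCLC, SRXN1, OSGIN1 and NFE2L2 did not hold these letters, which says nothing about sites elsewhere in these genes.

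The 39 libraries held between 8504699 and 16425527 counts each (median 11202013). Hepatocyte identity was checked with 8 markers, all of them counted in the libraries, with a summed level in the 9 controls from 25876 to 50186 RPM (reads on the target for every 1e+06 reads of the library). Of 7 cholangiocyte markers, KRT7, EPCAM and CFTR had under 10 counts in every library, as did COL1A2 among 5 mesenchymal markers and PTPRC and VWF among 5 immune and endothelial markers. The libraries least like the others were MMS 100 µM and MMS 200 µM, whose median correlation with the other 38 libraries, taken across genes, was 0.946 and 0.953.

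Values for single conditions are given as RPM and as a log2 ratio, the difference in log2(RPM + 1) from the matched control, which understates changes of low genes. No test is possible on 1 library against 1 library. Over the 270 values (9 genes in 30 conditions), 17 were more than 2-fold above the control and 2 more than 2-fold below it, 7.04% in all, compared with 3.16% over all 13812 genes tested and the same 30 conditions. The 19 values fell in 9 conditions, 3 of them from 2NF, 2 from MMS, 2 from ASC and 1 each from 2DG and CISP. None fell in AFB1, ETP, COL, AMP or NaCl.

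**Figure D1:**
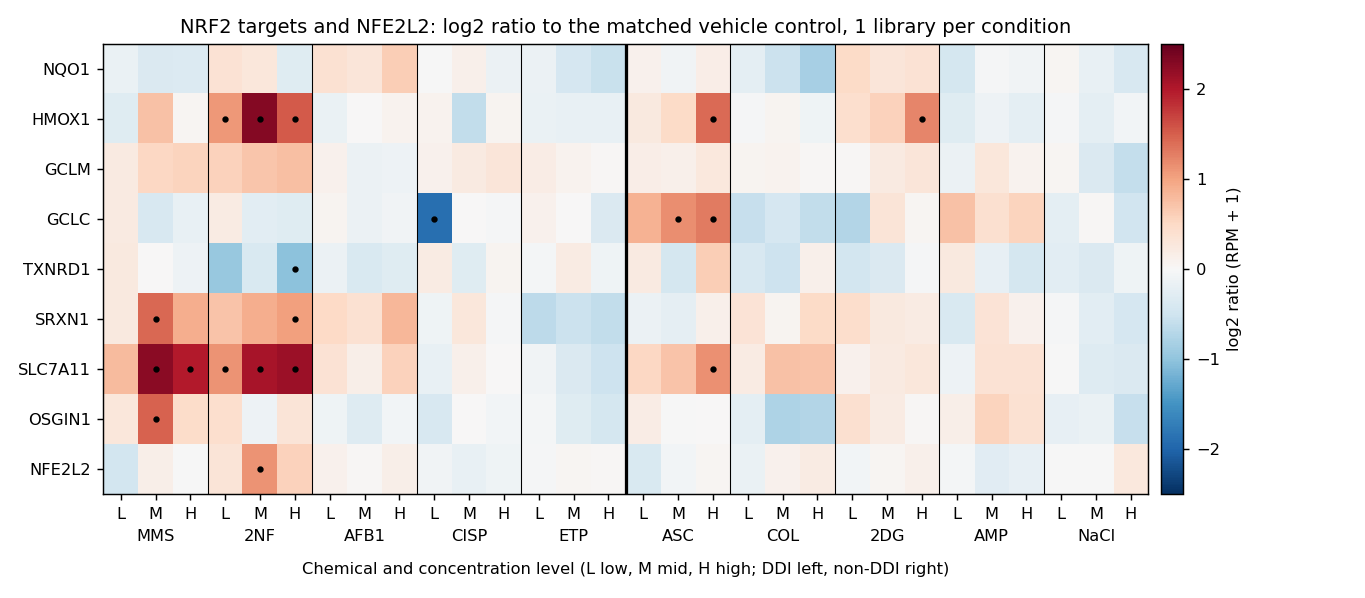
Log2 ratio of each of the 9 genes (rows) in each of the 30 treated libraries (columns, by chemical and low, mid or high concentration) to the matched vehicle control, with DDI chemicals left of the heavy line. A dot marks a difference of more than 2-fold, and the 19 dots sit in MMS, 2NF, ASC, 2DG and CISP.

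For the test, edgeR's quasi-likelihood model was fitted to the counts of all 39 libraries, with the control set as a block and 1 slope per chemical over the steps control, low, mid and high. A slope is a log2 change per concentration step, and a gene was called where its p, adjusted by the method of Benjamini and Hochberg over all 13812 genes, was below 0.05. The error of a slope comes from how far libraries depart from straight lines, not from repeated cultures.

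With MMS 2 of the 9 genes rose, SLC7A11 and SRXN1, and 7 were not called. In the MMS trend 15.5% of all genes were called, and 5.1% were called upward. SLC7A11 encodes the cystine carrier of the system xc- exchanger, which brings in the cysteine that limits glutathione synthesis. Its level was 63.5 RPM in the water control, 110.7 RPM at 50 µM, 305.6 RPM at 100 µM and 254.4 RPM at 200 µM. All 3 treated libraries lay above all 9 vehicle controls, whose highest level was 89.3 RPM. The log2 ratios were 0.79, 2.25 and 1.99, and the slope was 0.74 ± 0.11 per step (SE, adjusted p = 8.3e-05, edgeR).

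SRXN1 encodes sulfiredoxin, which restores overoxidized peroxiredoxins. It was counted at 85.3 RPM in the water control and at 101.4, 231.1 and 161.2 RPM from the low to the high concentration. Only the library at 100 µM lay above the highest control, a DMSO control at 207.3 RPM. The slope was 0.38 ± 0.12 (SE, adjusted p = 0.0258, edgeR). Without the library at 50 µM the slope was 0.34 with an adjusted p of 0.0745.

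Both calls rest on the single water control. Without that library the slope of SLC7A11 was 0.58 (adjusted p = 0.112, edgeR) and that of SRXN1 was 0.31 (adjusted p = 0.503, edgeR).

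GCLM, the modifier subunit of glutamate-cysteine ligase, was at 170.1 RPM in the water control and at 197.5, 242.8 and 250.2 RPM with MMS, a slope of 0.16 ± 0.06 (SE, adjusted p = 0.0583, edgeR). All 4 values lay inside the range of the 9 controls, 144.6 to 301.3 RPM. GCLC, the catalytic subunit of the same enzyme, went from 191.3 RPM to 223.7, 145.1 and 168.6 RPM (adjusted p = 0.585, edgeR). The slope of GCLC was -0.16 ± 0.16 (SE), so that neither subunit was called in MMS.

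OSGIN1 encodes a stress-induced growth inhibitor. It was at 8.49 RPM in the water control, 10.6 RPM at 50 µM, 25.4 RPM at 100 µM and 12.1 RPM at 200 µM. The mid library stood above all 9 controls (6.75 to 19.6 RPM), and the other MMS libraries did not. Its slope was 0.29 ± 0.14 (SE, adjusted p = 0.17, edgeR), and 0.76 without the library at 200 µM (adjusted p = 0.00107, edgeR). Straight lines over the steps describe this peak at the mid concentration poorly.

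HMOX1, the enzyme that opens the heme ring, was at 18.2 RPM in the water control and at 14.6, 30.9 and 18.7 RPM with MMS (adjusted p = 0.726, edgeR). NQO1, a quinone reductase, was at 11.7 RPM and then at 10.3, 8.80 and 9.02 RPM (adjusted p = 0.212, edgeR). NFE2L2 was at 117.8 RPM and then at 84.9, 131.2 and 116.9 RPM (adjusted p = 0.945, edgeR). TXNRD1, the cytosolic thioredoxin reductase, had between 5 and 31 counts in every library, 12 in the water control and 13, 11 and 7 with MMS, too few to show a moderate change.

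At 100 µM MMS 3 of the 9 genes (SLC7A11, OSGIN1 and SRXN1) were more than 2-fold above the control, beside 3.24% of all genes, and at 200 µM 1 was (SLC7A11), beside 3.08% of all genes. In the same libraries hepatocyte markers fell. Their summed level was 27887 RPM in the water control and 21396, 4459 and 8239 RPM with rising MMS, and 6 of the 8 were called downward, among them ALB, APOA1 and TTR. Markers of the other cell types moved too, with 3 of 4 tested cholangiocyte, 2 of 4 mesenchymal and 2 of 3 immune and endothelial markers called downward, and the cholangiocyte sum at 1272 RPM in the control and 1018, 502 and 812 RPM with MMS. In bulk libraries fewer cells of a type and less RNA per cell cannot be told apart, and the part of these shifts in the values above was not tested.

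**Figure D2:**
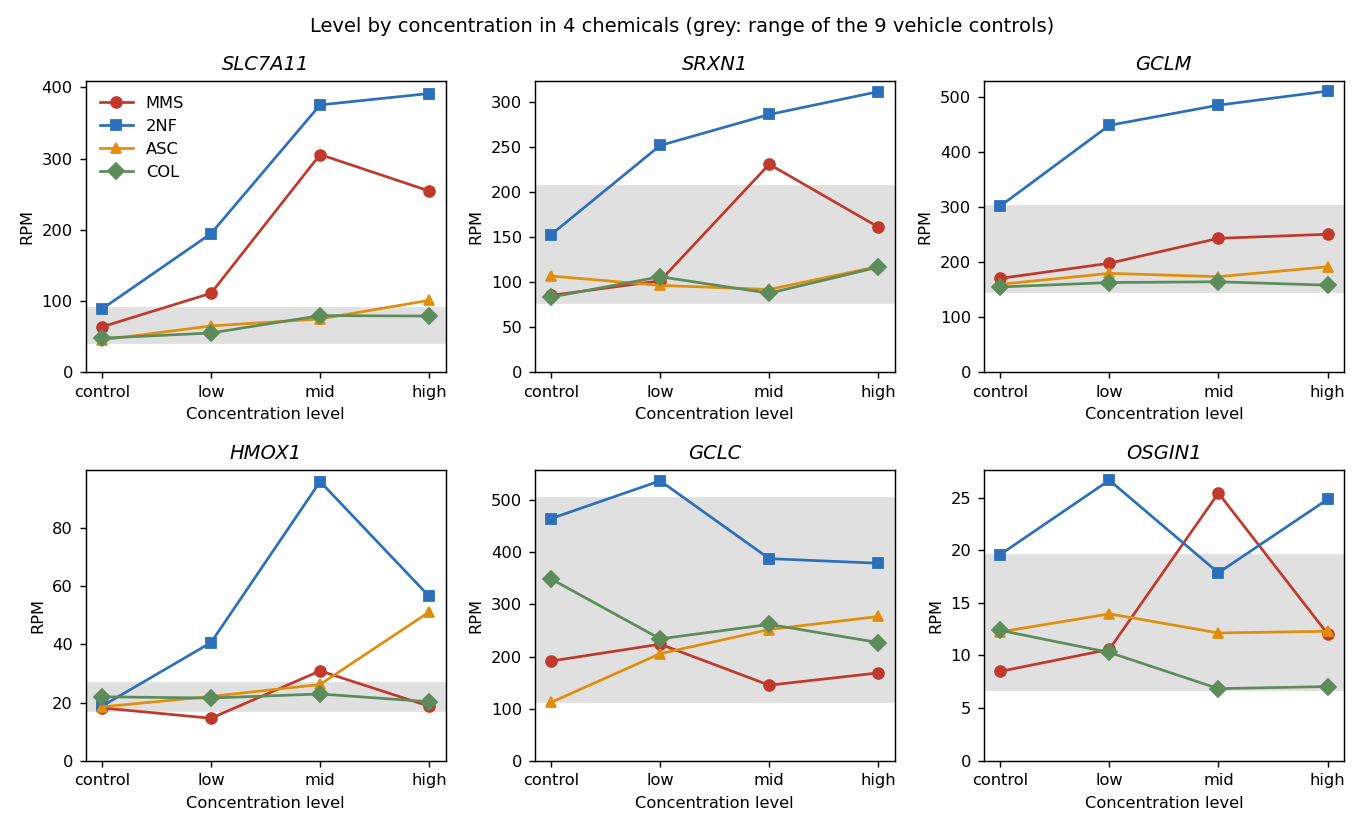
RPM (y axis, from 0) of 6 genes in the matched control and the low, mid and high concentrations (x axis) of MMS, 2NF, ASC and COL, 1 library per point, with the range of the 9 vehicle controls in grey. SLC7A11 leaves the grey band in MMS and 2NF and at the high concentration of ASC, whereas GCLM and GCLC start from different levels in the different controls.

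With 2NF 3 of the 9 genes rose, SLC7A11, HMOX1 and GCLM, and 6 were not called. In the 2NF trend 8.75% of all genes were called, and 4.3% were called upward. SLC7A11 was at 88.6 RPM in the DMSO control of this experiment, 194.5 RPM at 10 µM, 375.3 RPM at 50 µM and 391.3 RPM at 250 µM, again above all 9 controls at each concentration. Its slope was 0.72 ± 0.11 (SE, adjusted p = 9.3e-05, edgeR). HMOX1 was at 18.7 RPM and then at 40.6, 95.9 and 56.5 RPM, so it was highest at the mid concentration, and all 3 libraries lay above the highest control (26.8 RPM). Its slope was 0.62 ± 0.16 (SE, adjusted p = 0.0127, edgeR).

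GCLM was at 301.3 RPM in this control, the highest of the 9 controls, and at 447.9, 484.6 and 510.1 RPM with 2NF. The increase was already present at 10 µM and grew little after it, and the slope was 0.22 ± 0.06 (SE, adjusted p = 0.0164, edgeR). SRXN1 followed a similar order, from 152.8 RPM to 251.9, 286.4 and 311.8 RPM, all above the highest control of 207.3 RPM, but was not called (slope 0.30 ± 0.11, SE, adjusted p = 0.104, edgeR). The 3 calls rest on 1 DMSO control: without it the slopes were 0.48 for SLC7A11 (adjusted p = 0.138), 0.21 for HMOX1 (adjusted p = 0.871) and 0.07 for GCLM (adjusted p = 0.883, all by edgeR).

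NFE2L2 itself was at 83.8 RPM in the DMSO control of 2NF, the lowest of the 9 controls, and at 104.8, 183.4 and 126.0 RPM with 2NF. At 50 µM it was 2.19-fold above its control, the only value of NFE2L2 past 2-fold in 30 conditions. The slope was 0.25 ± 0.09 (SE, adjusted p = 0.1, edgeR). GCLC (adjusted p = 0.701), NQO1 (adjusted p = 0.593) and OSGIN1 (adjusted p = 0.957) were not called in the 2NF trend by edgeR, and OSGIN1 had its lowest 2NF level at the mid concentration, with 26.6, 17.9 and 24.8 RPM against 19.6 RPM in the control. TXNRD1 had 23 counts in the control and 8, 18 and 7 with 2NF, a slope of -0.47 ± 0.23 (SE, adjusted p = 0.273, edgeR).

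More than 2-fold above the 2NF control were 2 of the 9 genes at 10 µM (beside 0.659% of all genes), 3 at 50 µM (beside 2.61%) and 3 at 250 µM (beside 4.39%). They were SLC7A11 and HMOX1 at every concentration, NFE2L2 at 50 µM and SRXN1 at 250 µM. TXNRD1 was more than 2-fold below the control at 250 µM, as were 3.16% of all genes, on 7 counts against 23. The hepatocyte markers summed to 38002 RPM in this control and to 31478, 15376 and 14273 RPM with 2NF, and 4 of the 8 were called downward. Of 4 tested cholangiocyte markers 2 were called downward and 1 upward, and of 4 mesenchymal markers 1 was called downward. The part of these markers' changes in the values above was not tested.

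**Figure D3:**
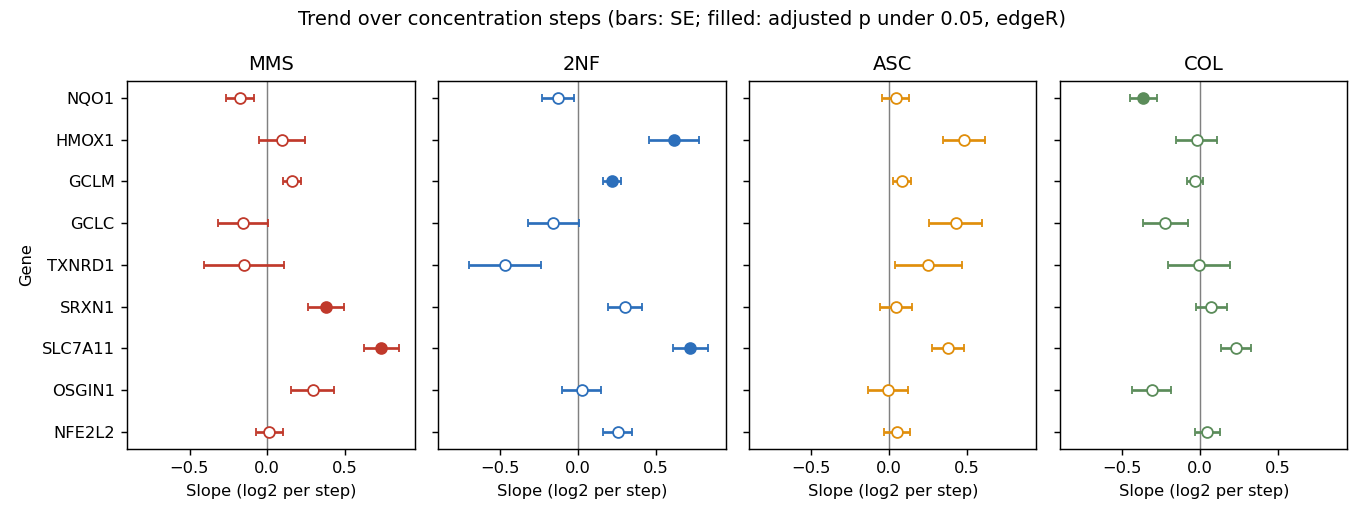
Slope of each of the 9 genes (log2 per concentration step, x axis) in the trends of MMS, 2NF, ASC and COL, with bars for 1 SE and filled points for an adjusted p under 0.05. SLC7A11 is filled in MMS and 2NF at slopes of 0.74 and 0.72, and no point is filled in ASC.

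MMS and 2NF were also set against each other and against the remaining chemicals. The slope of SLC7A11 exceeded the mean of the 9 other slopes by 0.58 ± 0.12 in MMS (SE, adjusted p = 0.00334, edgeR) and by 0.56 ± 0.12 in 2NF (SE, adjusted p = 0.00764, edgeR). By edgeR no other of the 9 genes was called in either contrast, in which 1.51% and 1.46% of all genes were called upward. DESeq2 called 1 of the 9 in the MMS contrast and 3 in the 2NF contrast, which were SLC7A11, HMOX1 (adjusted p = 0.0135) and GCLM (adjusted p = 0.0394). Each contrast has the other chemical among its 9. Without the water control the MMS contrast was 0.42 (adjusted p = 0.405), and without the DMSO control of 2NF the 2NF contrast was 0.32 (adjusted p = 0.705, both by edgeR).

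Between the MMS and 2NF slopes themselves none of the 9 genes was called by edgeR, with 1 at an unadjusted p below 0.05 and 0 called by DESeq2, beside 1.82% of all genes called by edgeR. For SLC7A11 the difference was 0.01, with a 95% interval from -0.31 to 0.34 per step. For HMOX1 it was -0.52, lower in MMS, with a 95% interval from -0.97 to -0.06 (adjusted p = 0.264, edgeR). That difference was -1.06 without the library at 250 µM 2NF (adjusted p = 0.00847, edgeR), and 2 of the 9 genes were called in that setting. At 250 µM HMOX1 was below its level at 50 µM of 2NF. The interval of SLC7A11 does not show that the slopes are equal.

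ASC, which can act as a reductant or, in culture medium, give rise to hydrogen peroxide, was followed by no called gene among the 9. Here edgeR called 0.0579% of all genes, 3 of the 9 had an unadjusted p below 0.05, and DESeq2 called 0 of the 9. SLC7A11 was at 45.2 RPM in the ASC control and at 64.8, 74.7 and 100.8 RPM with 1, 2 and 10 mM. Only the library at 10 mM lay above the highest control of 89.3 RPM. The slope was 0.38 ± 0.10 (SE, adjusted p = 0.149, edgeR). HMOX1 was at 18.5 RPM and then at 22.1, 26.2 and 51.1 RPM, so that the library at 10 mM stood clear of the 9 controls (17.3 to 26.8 RPM). Its slope was 0.48 ± 0.14 (SE, adjusted p = 0.155, edgeR).

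GCLC was at 112.0 RPM in the ASC control and at 205.5, 251.8 and 276.8 RPM with ASC, a slope of 0.43 ± 0.17 (SE, adjusted p = 0.281, edgeR). All of these lay within the range of the 9 controls, because the ASC control was the lowest of them and the highest was at 503.4 RPM. Against the mean of all 9 controls the log2 ratio of GCLC at 2 mM was -0.11 in place of 1.16. GCLM stayed between 173.2 and 191.2 RPM with ASC, close to its control at 159.3 RPM, and SRXN1, NQO1, OSGIN1, NFE2L2 and TXNRD1 had adjusted p values of at least 0.604 (edgeR).

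At 2 mM ASC 1 of the 9 genes (GCLC) was more than 2-fold above the control, as were 4.35% of all genes, and at 10 mM 3 were (HMOX1, GCLC and SLC7A11), beside 3.81% of all genes. Against the mean of the 9 other slopes edgeR called none of the 9 for ASC and 0.0% of all genes. There 2 of the 9 had an unadjusted p below 0.05 and DESeq2 called 0 of the 9, with GCLC at 0.48 ± 0.18 (SE, adjusted p = 0.285, edgeR) and HMOX1 at 0.38 ± 0.14 (SE, adjusted p = 0.288, edgeR). Unlike in MMS and 2NF, the summed level of the hepatocyte markers was not lower with ASC. Their sum was 25876 RPM in the ASC control, the lowest of the 9, and 36209, 51130 and 41124 RPM with ASC. ALB made up much of it, at 14020 RPM in that control and 22868, 36331 and 27952 RPM with ASC. Single markers went both ways, with 4 of the 8 slopes above 0 and a median of -0.03. TTR, for example, was at 1903 RPM in the control and 1322 RPM at 10 mM. None of the 8 was called.

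Of the other 7 chemicals, COL was followed by 1 called gene. NQO1 fell, from 9.59 RPM in the control to 7.92, 6.26 and 4.99 RPM, on 134, 90, 63 and 46 counts. The slope was -0.36 ± 0.09 (SE, adjusted p = 0.00644, edgeR), in a trend in which 12.3% of all genes were called and 7.21% were called downward. Only the library at 0.3 µM lay below the range of the 9 controls, 5.76 to 15.4 RPM. Without that library the slope was also -0.36, with an adjusted p of 0.236 (edgeR). The hepatocyte markers summed to 43847 RPM in this control and to 39308, 37913 and 21159 RPM with COL, and 5 of the 8 were called downward. Their part in the fall of NQO1 was not tested. In the same experiment SLC7A11 was at 47.6 RPM in the control and at 54.9, 79.3 and 78.7 RPM (adjusted p = 0.135, edgeR), and OSGIN1 at 12.4 RPM and then at 10.3, 6.85 and 7.05 RPM (adjusted p = 0.107, edgeR).

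None of the 9 genes was called in the trends of AFB1, CISP, ETP, 2DG, AMP and NaCl by edgeR or by DESeq2. At an unadjusted p below 0.05 by edgeR there was 1 in each of ETP (NQO1), 2DG (HMOX1) and NaCl (GCLM) and none in AFB1, CISP and AMP. The share of all genes called was 5.57% for AFB1, 0.0796% for ETP, 0.0434% for NaCl, and 0.0% for CISP, 2DG and AMP. These shares rest on single libraries: AFB1 went from 769 called genes to 0 without its library at 2.5 µM, and CISP from 0 to 555 without its library at 10 µM and to 145 without its control. In AFB1 SLC7A11 was at 61.7, 52.6 and 71.1 RPM against 47.6 RPM in the control, and SRXN1 at 117.3, 108.4 and 148.9 RPM against 83.3 RPM. The lowest adjusted p of the 9 in AFB1 was 0.328 (edgeR).

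HMOX1 with 2DG, an inhibitor of glycolysis, was at 17.3 RPM in the control and at 23.3, 26.1 and 41.4 RPM. The library at 10 mM was above all 9 controls, and HMOX1 was 1 of the 9 genes past 2-fold there, beside 0.0362% of all genes (5 genes). The slope was 0.40 ± 0.14 (SE, adjusted p = 1.0, edgeR), in a trend where edgeR called no gene at all and 212 genes had an unadjusted p below 0.05.

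GCLC with CISP was the largest single fall of the 270 values. It was at 503.4 RPM in the DMSO control of CISP, 136.5 RPM at 2 µM, 505.5 RPM at 5 µM and 493.7 RPM at 10 µM. The control was the highest of the 9 for GCLC, and the library at 2 µM lay inside their range of 112.0 to 503.4 RPM. At 2 µM 6.23% of all genes were more than 2-fold below the control, compared with 4.05% at 5 µM and 0.376% at 10 µM. GCLC was the 1 of the 9 genes more than 2-fold below it at 2 µM. The other 8 genes had log2 ratios between -0.40 and 0.20 there, OSGIN1 the lowest.

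By class, none of the 9 genes was called between the 5 DDI and the 5 non-DDI chemicals at the high concentration. There edgeR called 0.0515% of all genes, none of the 9 had an unadjusted p below 0.05, and DESeq2 called 0 of the 9. The differences ranged from -0.66 ± 0.43 for TXNRD1 to 0.29 ± 0.24 for SRXN1 (SE on the log2 scale, lowest adjusted p = 0.777, edgeR). That of SLC7A11 was 0.27 ± 0.42 (SE), and its log2 ratio at the high concentration was 1.99 in MMS and 2.13 in 2NF but 0.57 in AFB1, 0.01 in CISP and -0.51 in ETP. Vehicle and class nearly coincide, because 4 of the 5 non-DDI chemicals were given in media and no DDI chemical was.

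Before any chemical, the levels of several of these genes differed between control libraries. SRXN1 was at 156.4 ± 53.6 RPM in the DMSO controls and 89.6 ± 12.6 RPM in the media controls (SD, n = 4 libraries each), and GCLC at 406.4 ± 92.5 and 225.7 ± 115.6 RPM (SD, n = 4 each). None of the 9 was called by edgeR between the vehicles, beside 5.35% of all genes, with 3 at an unadjusted p below 0.05. The lowest adjusted p was that of SRXN1 (0.0631, edgeR), and DESeq2 called 2, SRXN1 and GCLC. By edgeR SRXN1 was also called without the DMSO control shared by AFB1 and COL.

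The largest log2 difference between 2 controls of 1 vehicle was 0.45 for NFE2L2, 0.61 for HMOX1, 0.89 for SLC7A11, 0.90 for TXNRD1, 0.96 for GCLM, 1.10 for OSGIN1, 1.13 for NQO1, 1.30 for SRXN1 and 1.66 for GCLC. These give the scale on which a ratio of single libraries can be read. Of the 30 conditions 6 exceeded it upward for SLC7A11, 6 for HMOX1, 2 for NFE2L2, 1 each for SRXN1 and OSGIN1, and 0 for NQO1, GCLM, GCLC and TXNRD1. Downward it was exceeded by 2 conditions for TXNRD1, on 5 to 31 counts in a library, and by 1 each for HMOX1, GCLC and NFE2L2. For SLC7A11 they were the mid and high concentrations of MMS, all 3 of 2NF and the high concentration of ASC. For GCLC both ratios above 2-fold with ASC were inside this range.

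Over the 30 conditions the log2 ratios of SLC7A11 and SRXN1 were the most alike of the 36 pairs of these genes, with r = 0.82, followed by GCLM and SLC7A11 (r = 0.76) and HMOX1 and NFE2L2 (r = 0.72). GCLM and SRXN1 (r = 0.60) and SRXN1 and OSGIN1 (r = 0.54) came lower. TXNRD1, with only 5 to 31 counts in a library, went against NFE2L2 (r = -0.39). These are descriptions, since conditions of 1 chemical share a control and the MMS and 2NF libraries set much of the range.

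Outside the gene lists used here, the genes whose log2 ratios were most like the mean of the 8 targets were SLC16A9 (r = 0.81), a solute carrier, F2RL2 (r = 0.80), a protease-activated receptor, ZBTB11 (r = 0.77) and ZNF786 (r = 0.77), both zinc finger genes, and YARS (r = 0.77), a tRNA synthetase. They were taken over the 30 conditions from 11562 genes whose count was 10 or more in all 39 libraries. F2RL2 had log2 ratios of 1.00, 1.93 and 1.71 with 2NF and 0.29, 1.78 and 0.92 with MMS, thus peaking at the mid concentration of both. With the lists included, TRIM16L (r = 0.87) and TRIM16 (r = 0.84) came first, near-identical copies whose reads may be shared. For SLC7A11 alone the most alike gene was SLC3A2 (r = 0.90), which encodes the heavy chain that carries the SLC7A11 protein to the membrane. SLC3A2 had log2 ratios of 0.21, 0.94 and 0.61 with MMS, of 0.54, 1.57 and 1.26 with 2NF and of 0.11, 0.12 and 0.45 with ASC.

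Genes whose log2 ratios were much like those of GCLC included MLYCD (r = 0.94), UQCRHL (r = 0.94), TBX5 (r = 0.93) and FECH (r = 0.93), and none of the other 8 genes reached as high an r with GCLC. MLYCD acts in the control of fatty acid oxidation. With ASC, FECH, which inserts iron into heme, had log2 ratios of 1.18, 1.36 and 1.37. MLYCD had 1.18, 1.00 and 0.99, so that both were about as high at 1 mM as at 10 mM. All of these ratios share the ASC control, the lowest of the 9 for GCLC. FECH was at 23.6 RPM there, compared with 35.1 RPM in the water control and 58.2 RPM in the DMSO control of 2NF. With ASC it was at 54.8, 62.2 and 62.8 RPM. The part of the control in these ratios was not tested.

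Of 49 other genes linked to NRF2, 46 were tested. In MMS 2 rose, 10 fell and 34 were not called, with a median slope of -0.06 compared with -0.01 over all genes. Over all genes 5.1% were called upward and 10.4% downward in this trend. Those that fell included EPHX1 (-0.44 ± 0.06), an epoxide hydrolase, PTGR1 (-0.40 ± 0.09), a reductase of lipid aldehydes and prostaglandins, AKR1B10 (-0.30 ± 0.08) and AKR1C3 (-0.29 ± 0.10), both aldo-keto reductases, the bile canalicular transporter ABCC2 (-0.27 ± 0.07) and IDH1 (-0.26 ± 0.08), a source of NADPH (all SE, adjusted p between 4.96e-05 and 0.0414, edgeR). Reads of the AKR1C genes may be shared between near-identical copies. The 2 that rose, named after their values were seen, were KEAP1 (0.23 ± 0.06, SE, adjusted p = 0.0057, edgeR) and CBR1 (0.17 ± 0.06, SE, adjusted p = 0.036, edgeR), a carbonyl reductase.

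KEAP1 went from 73.8 RPM in the water control to 88.0, 106.6 and 129.6 RPM, an order that followed the concentration. The called hepatocyte markers fell in the same libraries, and their part in these falls was not tested. Across the groups of this list, carbonyl and quinone reduction had 5 of 11 genes down and 1 up, transport 2 of 4 down, glutathione handling, NADPH supply and heme and iron 1 down each, and thioredoxin and peroxide reduction none of 5 in either direction. All MMS calls in this list, in the cell markers above and in the stress lists below share the single water control. Without it edgeR called 204 in place of 2140 of all genes in the MMS trend, and 15 in place of 705 upward.

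In 2NF 3 of the 46 rose, 2 fell and 41 were not called, with a median slope of 0.04 compared with -0.003 over all genes, of which 4.3% were called upward and 4.45% downward. The 5 were named after their values were seen. SQSTM1, the autophagy adaptor p62 that also binds KEAP1, was at 1442 RPM in the control and at 2224, 3589 and 3822 RPM, a slope of 0.47 ± 0.09 (SE, adjusted p = 0.000441, edgeR). SESN2, a stress-induced sestrin, had a slope of 0.44 ± 0.12 (SE, adjusted p = 0.0168, edgeR), and FTH1, the ferritin heavy chain, one of 0.20 ± 0.06 (SE, adjusted p = 0.0332, edgeR). IDH1 (-0.27) and the transporter ABCC3 (-0.27) fell. All 2NF calls, here and in the stress lists below, share 1 DMSO control. Without it edgeR called 269 in place of 1208 of all genes, and 102 in place of 594 upward. In ASC edgeR called none of the 46, with a median slope of 0.04 compared with -0.004 over all genes, and the smallest adjusted p was 0.0703 (UGDH). In COL 1 of the 46 rose, 15 fell and 30 were not called, with a median slope of -0.14 and 7 of the 11 carbonyl and quinone genes among those that fell, beside 7.21% of all genes called downward.

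SLC7A11 is a target of ATF4 as well as of NRF2, so 12 genes of the integrated stress response, the pathway that acts through ATF4, were set beside it. In MMS 4 rose, 1 fell and 7 were not called, beside 5.1% of all genes called upward and 10.4% downward, and the median slope was 0.31. ATF4 itself was at 185.9 RPM in the water control and at 206.3, 546.3 and 402.3 RPM, a slope of 0.46 ± 0.10 (SE, adjusted p = 0.00313, edgeR). SLC7A5, an amino acid carrier, had a slope of 0.57 ± 0.16 (SE, adjusted p = 0.014, edgeR). CHAC1, which degrades glutathione, was at 3.09 RPM and then at 2.12, 16.3 and 11.3 RPM (slope 0.82, adjusted p = 0.0567, edgeR). Of the 12 genes 10 had their highest level in this experiment at 100 µM, as had 5 of the 9 NRF2 genes (SLC7A11, SRXN1, OSGIN1, HMOX1 and NFE2L2) and 28.1% of all genes tested.

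In 2NF 5 of the 12 rose, none fell and 7 were not called, beside 4.3% of all genes called upward, and the median slope was 0.43. Those called were ATF3, TRIB3, PHGDH, SLC7A5 and SLC3A2. ATF4 was not among them, with 204.1 RPM in the control and 210.8, 293.9 and 206.8 RPM with 2NF (adjusted p = 0.9, edgeR). In ASC none of the 12 was called, with a median slope of 0.10, and ATF4 was at 191.0 RPM in the control and between 178.0 and 196.2 RPM with ASC. How much of the SLC7A11 level follows from either pathway was not tested.

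Of 8 heat shock genes none was called in MMS, 2NF or ASC, and HSPA1B (slope 0.27, adjusted p = 0.0507), HSPB1 (0.16, adjusted p = 0.356) and HSP90AA1 (0.15, adjusted p = 0.234, all by edgeR) had the largest MMS slopes. HSPA1B shares most of its sequence with HSPA1A. Of 8 metallothionein genes, which bind zinc and copper and respond to metals and oxidants, 7 were tested. In MMS, 2NF and ASC 1 was called, MT2A in MMS (0.50, adjusted p = 0.00442, edgeR), which was at 2930 RPM in the control and at 3603, 7651 and 7847 RPM. MT2A was also called in COL (0.33, adjusted p = 0.0335, edgeR). MT1G (0.66, adjusted p = 0.193), MT1M (0.60, adjusted p = 0.158) and MT1E (0.50, adjusted p = 0.27, all by edgeR) had slopes as large or larger, and their reads may be shared between copies. The slopes of MT1G and MT1M rest on few reads, with 8 and 4 counts in the water control. The median metallothionein slope was 0.50 in MMS, -0.04 in 2NF and 0.31 in ASC.

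**Figure D4:**
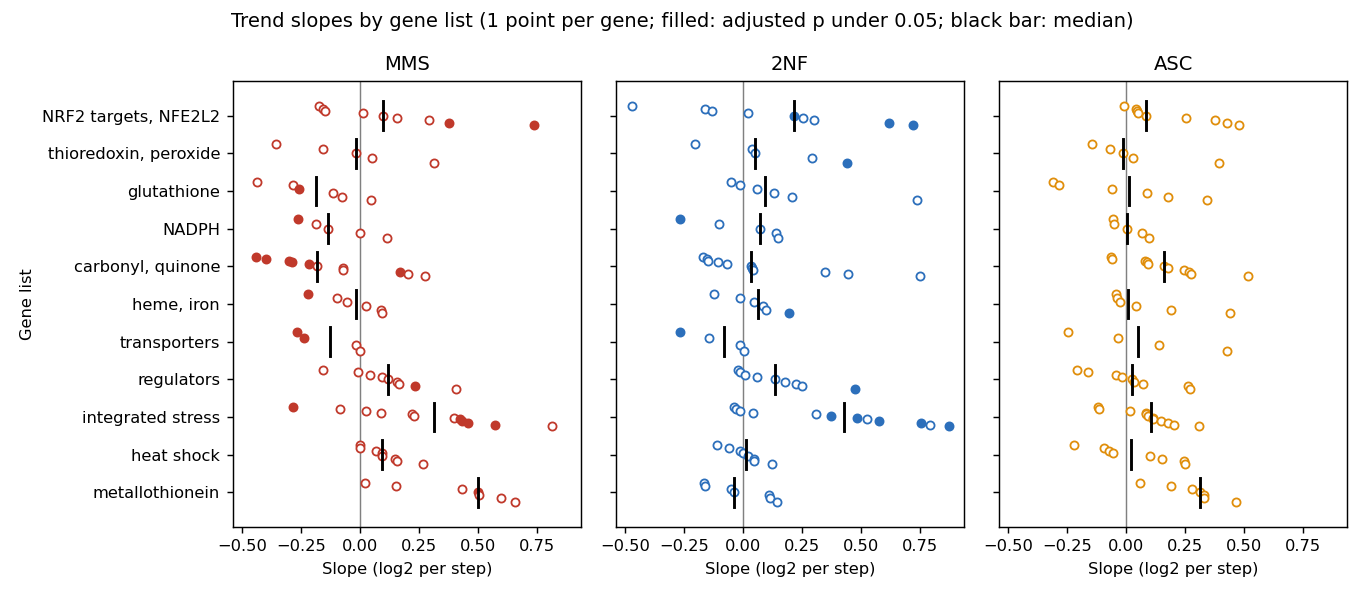
Trend slopes (log2 per concentration step, x axis) of the 9 genes, of the 46 tested genes of the wider NRF2 list by function, and of 3 stress lists (y axis) in MMS, 2NF and ASC, 1 point per gene, filled where the adjusted p was under 0.05, with the list's median as a black bar. In MMS the carbonyl and quinone genes lie mostly below 0 and the integrated stress genes mostly above it, and in ASC no point is filled.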

How the data were processed

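The authors mapped the Ion Proton reads with the Torrent aligner (TMAP) to the amplicons of the panel, build hg19, and deposited the counts of reads on each target. The deposited RPM values are those counts divided by the library's own total and were not normalized further. The 10 spike-in targets, all at 0 counts, and 6 annotation columns were left out. Libraries were assigned to groups and controls from the labels. Library totals limit the precision of genes with few counts, and the libraries carry no molecular identifiers.

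The counts were tested with edgeR 4.0.16 (TMM, filterByExpr, quasi-likelihood) in R 4.3.3 over all 39 libraries, with 9 control sets as blocks, 10 slopes on the concentration step (0 to 3) and 20 residual degrees of freedom, from which 95% intervals were taken. SEs were derived from the F statistic. Class was tested at the high concentration with the control set as a block, and vehicle on 4 DMSO and 4 media controls. The MMS trend in edgeR was checked on simulated counts with straight slopes and no difference between control sets. The other tests were not simulated. DESeq2 1.42.0 was an alternative. The replicates are control libraries in the vehicle test and chemicals in the class test. The trends have none, and their error comes from departures from straight lines. Between control libraries, 2 always differed beyond sampling noise (chi-square per degree of freedom of at least 9.68). Summaries were made with Python 3.11.15, pandas 2.3.3 and matplotlib 3.10.9.

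The genes and lists were chosen with earlier results of these data known. Named were all 9 genes, of the wider list up to 6 called genes with the largest slope in MMS or ASC, of each stress list up to 3 with the largest MMS slope, and the 5 genes most like the mean of the 8 targets. The contrasts of 2NF and the likeness of single genes were added after the values were seen. Genome coordinates belong to the RefSeq windows (GRCh38.p14) and not to the amplicons. A gene among those most like GCLC is not reported here.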

Additional observations from a re-analysis of the deposited data

Results flagged for a closer look

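SLC7A11 was singled out because its slope differed between chemicals in a test of the difference itself: it exceeded the mean of the 9 other slopes by 0.58 log2 per step in MMS (adjusted p = 0.00334, edgeR) and by 0.56 in 2NF (adjusted p = 0.00764, edgeR). Against its own control it was higher in 3 of 3 MMS libraries and in 3 of 3 2NF libraries. The 3 libraries of a chemical share 1 control, so these are not independent comparisons. Neither contrast was called without that control, and the 2NF contrast was added after the values were seen. Dixon's test was run on 18 sets of control values (9 genes in 4 DMSO and in 4 media controls) and singled out no library. With 4 values in a set it can find only a very distant library, and it left out the single water control. Controls of 1 vehicle still differed by up to 1.66 log2 (GCLC).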

How the results depend on the processing

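Of the 9 genes, 2 were called in MMS. There was 1 with concentrations on a linear scale, 1 with all treated libraries set against the control, and between 0 (without the water control) and 3 (without MMS 200 µM) when 1 library was left out. For the 8 other chemicals together 4 calls became 1 on the linear scale, 0 for treated against control and between 1 (without the DMSO control of 2NF) and 5 (without 2NF 250 µM) when 1 library was left out. The 1 call of MMS against the 9 other slopes became 0 on the linear scale, 0 for treated against control, 3 without MMS 200 µM and 0 without the water control. Between vehicles 0 became 2 with DESeq2 and 1 without the DMSO control of AFB1 and COL. Over all genes the 2140 calls of MMS became 1324 on the linear scale, 161 for treated against control and between 204 (without the water control) and 1710 when 1 library was left out. The 1208 of 2NF became 445 and 4 in the same settings, 554 without 2NF 250 µM, and between 269 (without its control) and 1053 when 1 library was left out. With a 1.5-fold limit 44 in place of 19 values of the 9 genes passed. GCLC at 2 mM ASC reversed to -0.11 against the mean of all 9 controls. On the log2 scale of concentration HMOX1 in 2NF had an adjusted p of 0.0624 (edgeR). GCLM in MMS was called with library totals only (adjusted p = 0.0185, edgeR) and with DESeq2 (adjusted p = 0.0456). The cause of these shifts was not tested. Of 14 slopes and contrasts followed gene by gene, 0 of 172 values reversed, 24 lost the call and 4 gained it. The 172 include values of slopes and contrasts not called at first, which had no call to lose. The 24 are therefore a larger share of the values that could lose one.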
